A study of Mus musculus with 104 samples.

Results

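The genes described here encode the secreted Wnt ligands, the Frizzled receptors and 2 families of secreted antagonists, the secreted Frizzled-related proteins (Sfrp) and the Dickkopfs (Dkk). They are all measured genes whose symbol begins with Wnt, Fzd, Sfrp or Dkk followed by a digit, 38 of 18193 genes, with a single probe set for each gene, the brightest over all arrays. They comprise 19 ligands, 10 receptors, 4 Sfrp genes, 4 Dkk genes and Fzd10os, a transcript from the strand opposite Fzd10. Gene expression was measured on Affymetrix arrays in 52 neural tissues with 2 arrays each, including the pineal gland, pituitary and retina, the brain regions punched from 0.5-mm frozen slices. All mice were male Balb/c animals of 7 to 8 weeks, adapted to 12 h of light and 12 h of dark, and sampled in that cycle or in constant darkness. Each array held RNA pooled over a day from samples taken every 4 h, so that differences by time of day cannot be seen, and the labels do not give the lighting of an array. The series was built around POA/BF, the basal forebrain with the preoptic area. Regions were compared with equal weight, first among all 52. POA/BF, isocortex, hippocampal formation, olfactory bulb, thalamus, hypothalamus, cerebellar cortex, retina and pituitary were then each set against the other brain and spinal cord regions. The dentate gyrus was set against the CA fields of the hippocampus. The remaining classes, among them the striatum, habenula and pineal gland, were not compared as classes.

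Wnt proteins are secreted, lipid-modified signals that bind a Frizzled receptor together with the co-receptor Lrp5 or Lrp6. In the canonical branch this stabilises beta-catenin, which enters the nucleus and works with the transcription factors Tcf7l2, Lef1 and their relatives, and in other branches it acts on cell polarity and calcium. Sfrp proteins bind Wnts outside the cell, and Dkk1, Dkk2 and Dkk4 bind Lrp5 and Lrp6, whereas Dkk3 is a divergent member of its family. In the brain the pathway patterns the embryo, guides axons, builds the blood-brain barrier and acts on adult synapses.

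The promoters of 3 members are shown because Fzd5 had the widest range of all members, and Wnt9b and Wnt3 are neighbouring genes that were both highest in thalamic nuclei. Each is the stretch from 250 bases before to 50 bases after a start of the gene, from RefSeq on GRCm38.p6. It is written 5′ to 3′ on the strand of the gene. Capitals mark a match to the Tcf/Lef core CTTTGAT or CTTTGTT, searched on both strands. Fzd5 lies on the minus strand at chr1:64737701-64738000, Wnt9b on the minus strand at chr11:103749772-103750071 and Wnt3 on the plus strand at chr11:103773925-103774224. The Wnt9b window lies inside the span listed for that gene, 103727362-103775272, and not at its outer start.
Fzd5: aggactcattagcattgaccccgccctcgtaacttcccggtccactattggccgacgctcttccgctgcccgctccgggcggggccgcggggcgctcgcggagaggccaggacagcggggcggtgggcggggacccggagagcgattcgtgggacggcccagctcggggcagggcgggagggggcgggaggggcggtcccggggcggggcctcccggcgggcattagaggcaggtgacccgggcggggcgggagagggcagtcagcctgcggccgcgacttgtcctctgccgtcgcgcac
Wnt9b: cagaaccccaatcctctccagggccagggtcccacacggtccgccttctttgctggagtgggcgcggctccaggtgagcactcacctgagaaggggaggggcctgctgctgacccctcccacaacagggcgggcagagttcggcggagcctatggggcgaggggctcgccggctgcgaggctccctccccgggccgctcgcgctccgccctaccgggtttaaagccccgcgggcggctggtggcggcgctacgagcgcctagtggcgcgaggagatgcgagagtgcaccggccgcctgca
Wnt3: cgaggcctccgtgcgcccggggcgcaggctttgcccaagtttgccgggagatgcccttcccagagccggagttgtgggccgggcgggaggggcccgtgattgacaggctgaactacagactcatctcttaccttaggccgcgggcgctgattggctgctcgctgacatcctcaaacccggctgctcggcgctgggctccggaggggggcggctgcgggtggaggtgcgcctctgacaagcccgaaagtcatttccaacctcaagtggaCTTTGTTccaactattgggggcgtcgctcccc
The Wnt3 promoter held 1 match, CTTTGTT from base 269 of the 300 shown, and the other two held 0. Promoter sequences were available for 25 of the 38 members, some with several starts, and not for the other 13. Either core was found in 5 of the 28 promoters of members, 17.9%, against 9.33% of all 32851 promoters of the same length (3.73% for CTTTGAT and 5.85% for CTTTGTT). The 5 belonged to Fzd7, Wnt5b, Wnt11, Wnt3 and Dkk1. A match describes letters in this window only.

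The deposited values were on the log2 scale with a median of 7.39 over all arrays, and all levels below are in these units, so that a difference of 1 is 2-fold. Levels of different genes come from different probes and were not set against each other. Replicate arrays had r = 0.972 to 0.998 over all genes, and none were identical. The retina pair had the lowest r and the largest median SD, 0.17, against a median of 0.074 over the regions. The labels do not say that they came from separate animals, so p-values measure the spread between these arrays, which may be technical. Of 42 pairs of a marker gene and a label, the best region of that label ranked highest for 31 and within the top 3 for 40. Labels with several regions pass more easily, and Prox1 entered under 2 labels. In POA/BF, Ngfr ranked 1, Lhx8 2 and Gal 5. Pituitary hormone mRNA was present in the retina arrays. Gh, growth hormone, was at 14.69 in the retina and 14.71 in the pituitary, against a median of 7.51 in the other regions, and each of the 7 anterior pituitary markers was above that median in the retina. The median eminence also held some of them (Cga at 12.62 and Tshb at 10.67, with Gh at 7.78 and Prl at 6.43). In POA/BF the 64 control probe sets did not line up with those of the other regions (r = -0.43 with their median, against at least 0.973 elsewhere), while the other probe sets did (r = 0.984).

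Which members differed among the 52 regions was asked first. To be called, a gene needed an adjusted p under 0.05 in the limma F test and a range of at least 2-fold between its highest and lowest region mean. By this rule 22 of the 38 members were called, 57.9%, against 60.3% of all genes, so that as a group they varied about as often as any gene. They were 9 of the 19 ligands, 7 of the 10 receptors, 3 of the 4 Sfrp genes, 2 of the 4 Dkk genes and Fzd10os. The median range was 1.30 for the members and 1.24 for all genes. On adjusted p alone 37 members passed, against 95.1% of all genes, and the exception was Wnt16, a ligand known from bone (adjusted p = 0.0687, limma). Of the 22, 6 had their highest level in the retina, 2 each in the habenula, CA1 and the mediodorsal thalamus, and the other 10 each in a different region. Among all called genes, 21.0% were highest in the retina, 2.35% in the habenula, 5.32% in CA1 and 1.73% in the mediodorsal thalamus. Because these are pieces of tissue, fewer cells of a type and less RNA per cell cannot be told apart.

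**Figure D1:**
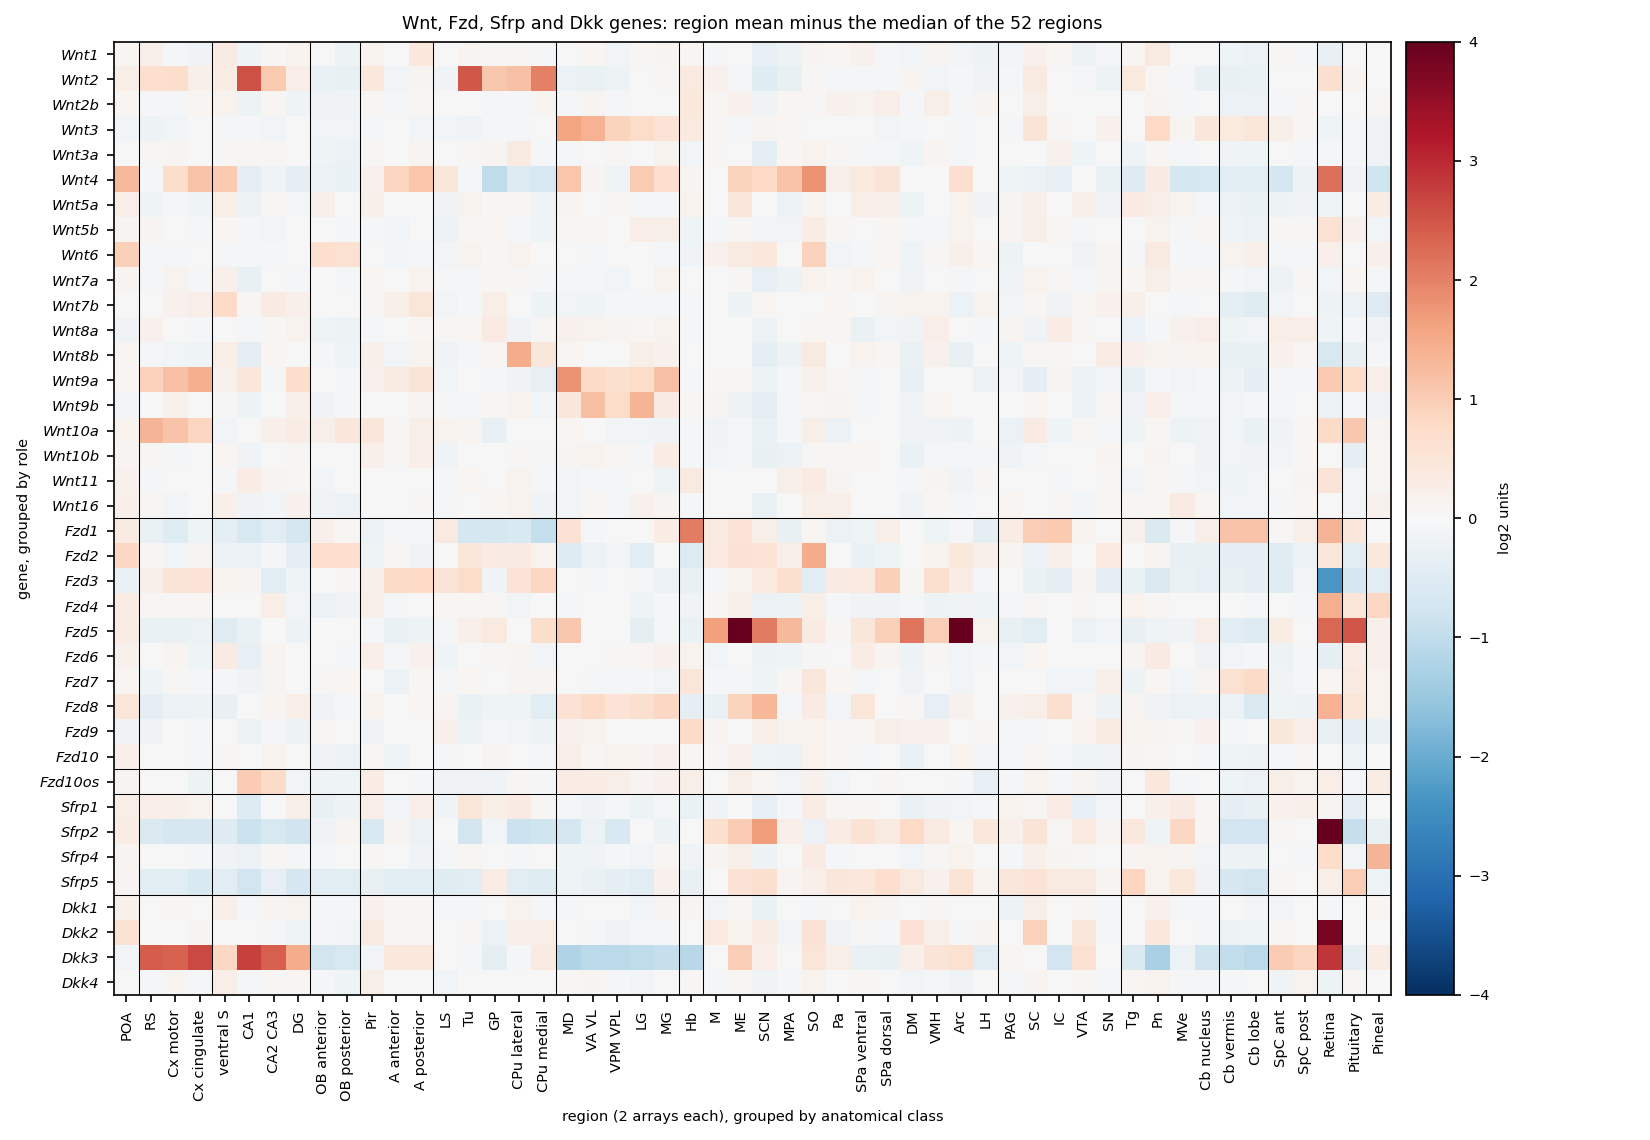
Region mean minus the gene's median over the 52 regions, in log2 units, for the 38 members (down, grouped by role) in the 52 regions (across, grouped by class, 2 arrays each), with colours saturated at 4 units. Fzd5 in the median eminence (ME) and arcuate nucleus (Arc) and Sfrp2 in the retina stand furthest above their medians, and Fzd3 in the retina is the deepest blue.

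Among the ligands, Wnt4, which acts in kidney and gonad development, had the widest range, 3.21. It measured 8.85 and 10.12 in the retina, 9.12 and 9.03 in the supraoptic nucleus and 8.69 and 8.49 in POA/BF, against 6.30 and 6.25 in the globus pallidus. The arrays of the retina lay far apart for this gene, and the lower of them fell below those of the supraoptic nucleus. Wnt2 was high in separate parts of the forebrain. Its arrays read 8.80 and 8.81 in CA1 of the hippocampus, 8.77 and 8.71 in the olfactory tubercle and 8.22 and 8.36 in the medial caudate putamen, and the lateral caudate putamen had 7.50 and 7.35. The median of the 52 regions was 6.26, and the suprachiasmatic nucleus was lowest at 5.72 and 5.81. The means of CA1 and the olfactory tubercle were 0.06 apart, and every one of their arrays lay above those of all other regions. Wnt8b, an early marker of the embryonic dorsal forebrain, read 8.24 and 8.33 in the lateral caudate putamen. The medial caudate putamen followed at 7.02 and 7.51, with a median of 6.81 over regions. Its other probe sets had ranges of only 0.64 and 0.78.

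Several ligands were highest in the thalamus. Wnt9b, needed for kidney tubule formation, averaged 9.17 ± 0.23 in the lateral geniculate (SD, n = 2) and read 9.05 and 8.99 in the ventral anterior and ventrolateral nuclei and 8.77 and 8.29 in the ventral posterior nuclei, against a median of 7.81. Wnt9a, which acts in joint formation, read 8.18 and 8.43 in the mediodorsal thalamus, above all other arrays, then 8.14 and 7.70 in cingulate cortex and 7.90 and 7.46 in the medial geniculate. Wnt3, a canonical ligand of early development, was dim everywhere but followed the same tissue, with 6.01 and 6.43 in the mediodorsal thalamus and 6.34 and 5.69 in the ventral anterior and ventrolateral nuclei, against a median of 4.63. All its levels were under the median of all values. Wnt10a, known from teeth and hair, was highest in the isocortex, with 7.71 and 8.17 in retrosplenial and 7.89 and 7.53 in motor cortex. Wnt6 read 7.96 and 7.87 in POA/BF and 7.77 and 8.01 in the supraoptic nucleus, followed by the anterior olfactory bulb at 7.83 and 7.44. Wnt7b, which with Wnt7a guides vessel growth into the brain, was highest in the ventral subiculum at 10.43 and 10.75, above all other arrays, and next in the posterior amygdala at 10.29 and 10.32.

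The other ligands had ranges under 2-fold. Of those bright enough to exceed the median of all values in some region, Wnt1, the ligand of the midbrain-hindbrain boundary, peaked in the posterior amygdala at 7.61 and 7.77. Wnt10b was highest in the medial geniculate at 7.89 on both arrays, Wnt7a in the pontine nucleus at 9.72 and 9.77, and Wnt5a, the main ligand of the non-canonical branch, in the median eminence at 7.91 and 8.03. The dim ones were highest in the habenula (Wnt2b), the lateral caudate putamen (Wnt3a), the retina (Wnt5b and Wnt11), the globus pallidus (Wnt8a) and the medial vestibular nucleus (Wnt16), with ranges of 0.58 to 0.86. For none of these ligands with a range under 2-fold did both arrays of the highest region lie above all other arrays.

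**Figure D2:**
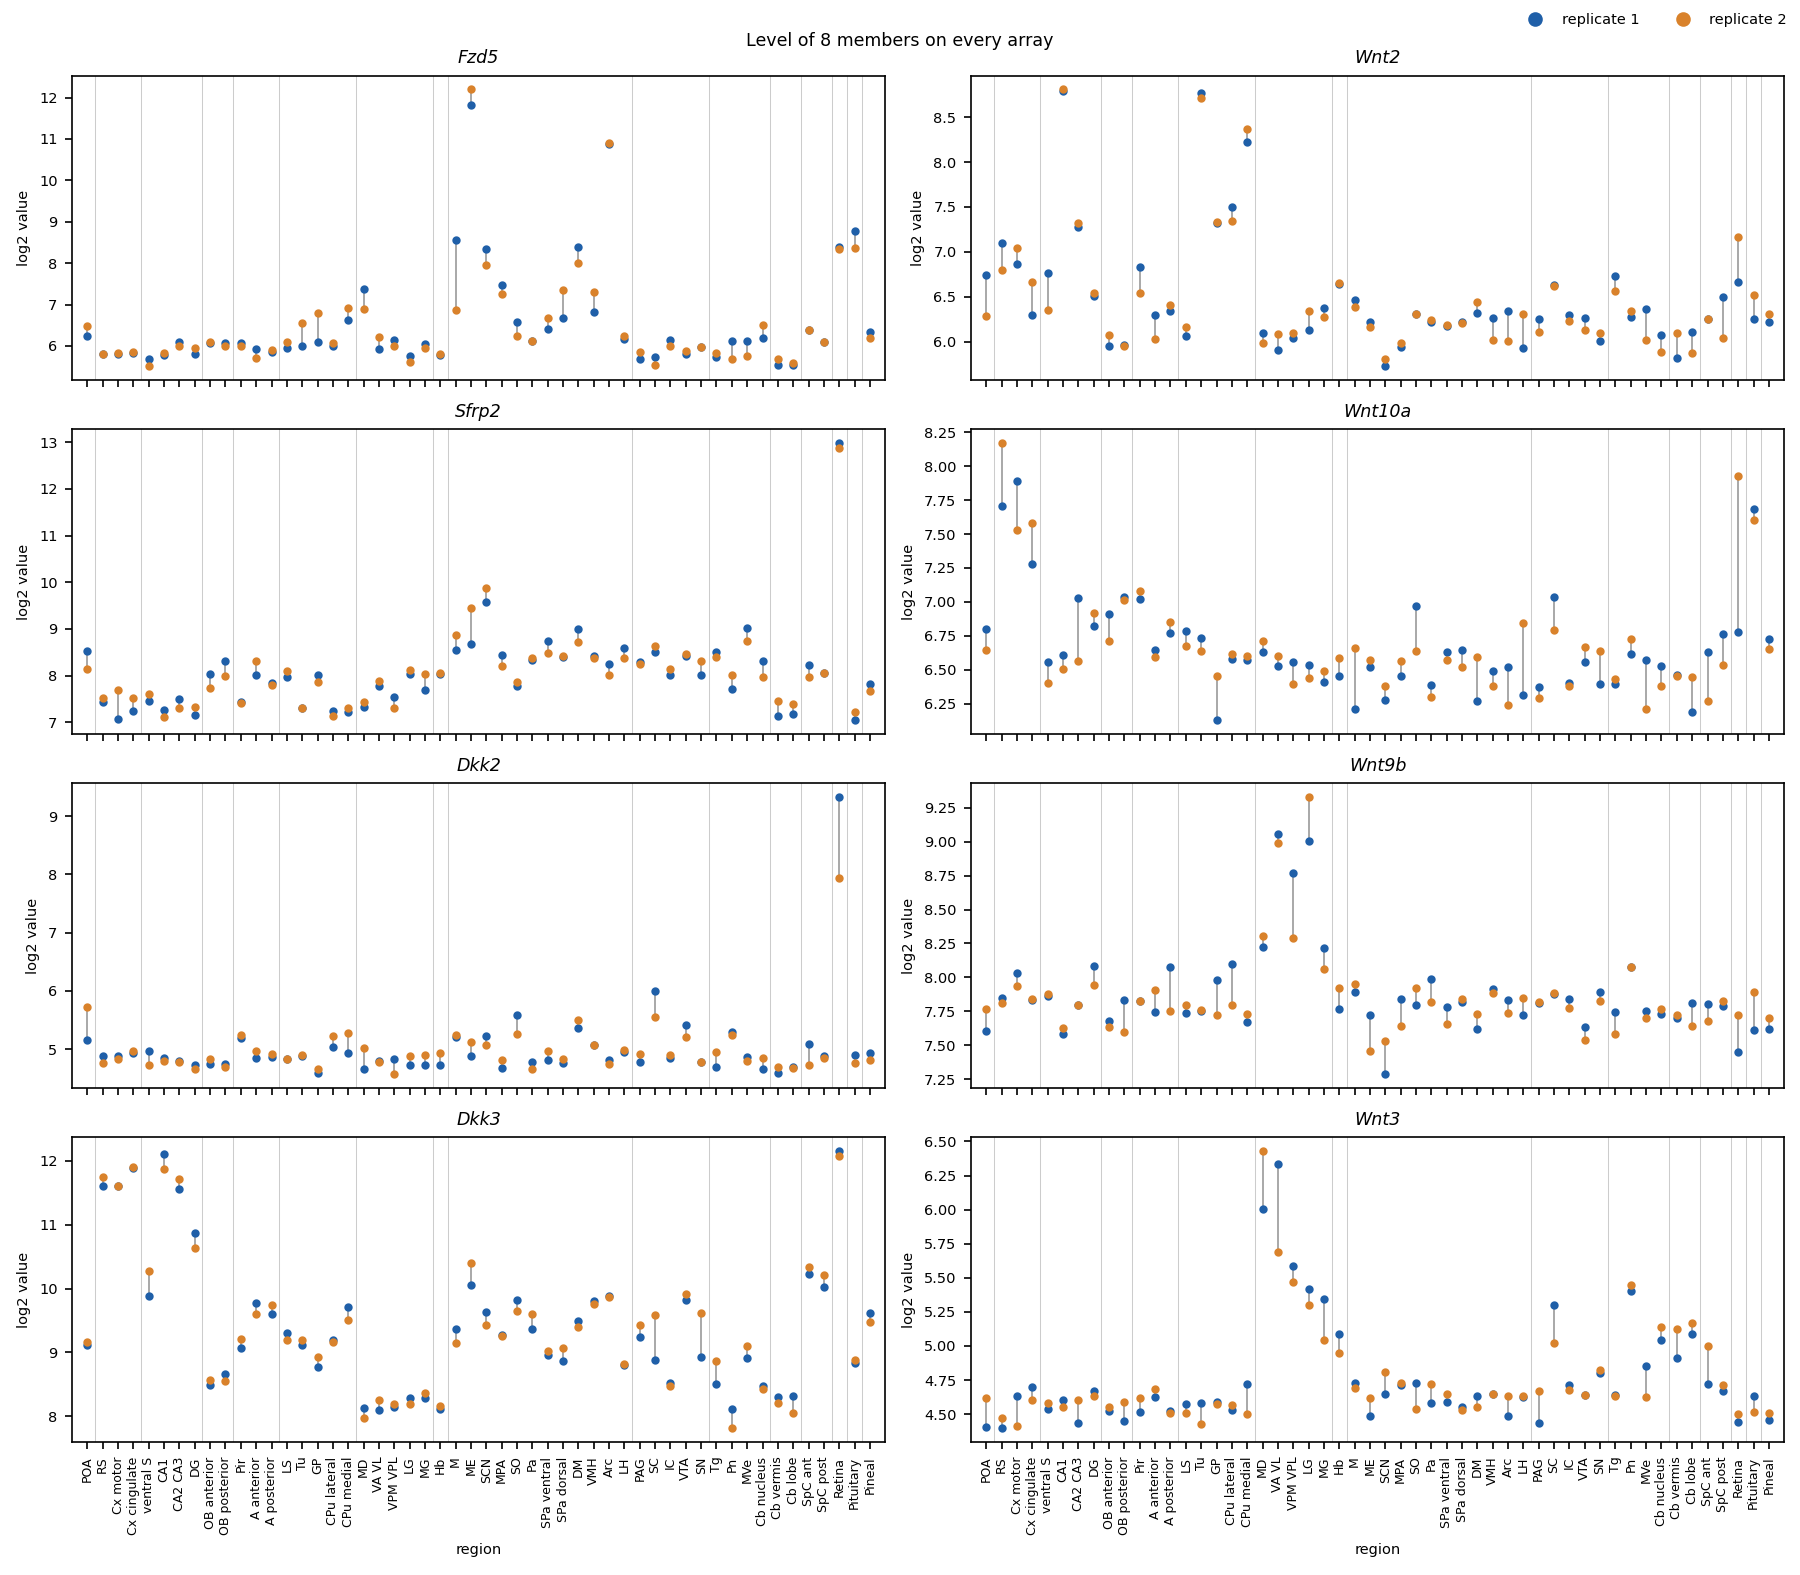
log2 value on each array (blue replicate 1, orange replicate 2, joined by a line) of 8 members in the 52 regions, grouped by class. Fzd5 reads 11.83 and 12.20 in the median eminence, Sfrp2 stands alone in the retina, Dkk3 is high in isocortex, CA fields and retina, and Wnt9b and Wnt3 are high in the thalamus (MD to MG).

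Among the receptors, Fzd5, which acts in the developing eye and hypothalamus, had the widest range of all members, 6.46 or 87.8-fold. It read 11.83 and 12.20 in the median eminence and 10.89 on both arrays of the arcuate nucleus beside it, followed by the pituitary at 8.78 and 8.37 and the retina at 8.40 and 8.35. The dorsomedial hypothalamic and suprachiasmatic nuclei came next at 8.38 and 8.02 and at 8.35 and 7.95. The median of the regions was 6.07, and the cerebellar lobe was lowest at 5.54 and 5.58. The median eminence and arcuate nucleus thus lay above every other array, and their own arrays did not overlap. Over the same 2 regions the mean of the 7 anterior pituitary markers was 9.19 and 8.56, ranks 3 and 4 of 52, and that of the meninges list was 10.02 and 9.03. The pituitary marker mean in the pituitary itself was 13.94. Not all 7 pituitary markers were raised in the median eminence and arcuate nucleus. Pomc was at 12.2 and 13.0 there, Cga at 12.6 and 10.8 and Tshb at 10.7 and 9.61. Their medians in 45 other regions were 8.11, 6.59 and 7.08. Gh was at 7.78 and 7.40, against 7.51, and Prl at 6.43 and 6.26, against 6.335. Lhb was at 8.14 and 7.57, against 7.62, and Fshb at 6.43 and 5.26, against 5.29. The part of these cells in the Fzd5 level was not tested. The second Fzd5 probe set, dim throughout, was also highest in the median eminence, at 6.25 with a range of 1.04.

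Fzd1, a receptor of the canonical branch, read 10.81 and 10.83 in the habenula, above all other arrays. The retina followed at 10.19 and 10.10 and the cerebellar lobe at 9.97 and 9.88, and the medial caudate putamen was lowest at 7.62 and 8.05. Fzd9, a receptor expressed in the hippocampus during development, was also highest in the habenula, at 8.55 and 8.60. Fzd3, needed for the growth of major axon tracts, differed from the others in having an outlying low. It read 8.39 and 7.71 in the retina, below all other arrays, and 9.91 and 9.50 in the pituitary, against 11.41 and 11.29 in the dorsal subparaventricular zone. Fzd4, the norrin receptor of retinal vessels, read 9.95 and 9.65 in the retina and 9.10 and 9.23 in the pineal gland. Fzd8 was equally high in the retina, at 8.86 and 8.71, and the suprachiasmatic nucleus, at 8.75 and 8.68. Fzd2 read 9.60 and 9.47 in the supraoptic nucleus, above all other arrays, then 8.84 and 8.88 in POA/BF and 8.83 and 8.59 in the anterior olfactory bulb. Ranges under 2-fold were found for Fzd7, highest in the cerebellar lobe at 8.04 and 7.71, Fzd6, highest in the pontine nucleus at 8.95 and 8.79, and Fzd10, highest in the mediodorsal thalamus at 8.44 and 8.34. Fzd10os read 8.79 and 8.84 in CA1 and 8.69 and 8.45 in CA2/CA3, the CA1 arrays above all others, while Fzd10 itself varied by 0.52. The transcripts of this pair are told apart here only by the annotation of their probe sets.

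Sfrp2, an extracellular Wnt inhibitor, had the second widest range, 5.79. Its retina arrays read 12.98 and 12.87, 3.21 above the next region, the suprachiasmatic nucleus at 9.57 and 9.87, and the pituitary was lowest at 7.04 and 7.22. Sfrp4, known from bone, read 9.90 and 9.89 in the pineal gland and 9.13 and 9.43 in the retina. Sfrp5, known from adipose tissue, was highest in the pituitary, but its arrays there were apart, at 10.47 and 9.69, and overlapped with the dorsal tegmental nucleus at 9.92 and 10.02. Sfrp1, which acts in eye development, was highest in the olfactory tubercle at 9.30 and 9.32, with a range of 1.00 that fell just short of 2-fold.

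Dkk3, the divergent Dickkopf, was high in 3 separate tissues. It read 12.15 and 12.08 in the retina, 12.12 and 11.87 in CA1 and 11.88 and 11.90 in cingulate cortex. The CA1 arrays overlapped with those of the retina and of cingulate cortex, while the retina arrays lay above the cingulate ones. Lowest were the pontine nucleus at 8.11 and 7.81 and the mediodorsal thalamus at 8.13 and 7.97. Dkk2, an Lrp6 ligand that acts in the eye surface, was near the bottom of the scale in all regions but the retina, where it read 9.33 and 7.94. The next region, the superior colliculus, had 6.00 and 5.55, and the median was 4.85. Dkk1, the best known Lrp6 blocker, peaked in the superior colliculus at 5.97 ± 0.17, and Dkk4 in the ventral subiculum at 5.78 ± 0.17 (SD, n = 2 each), both dim and with ranges under 0.50.

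The classes of regions named at the outset were then compared. In each comparison below, limma differences are given with their SE, p-values were adjusted over all genes, and calls needed an adjusted p under 0.05 and a 2-fold difference. The comparisons share most of their reference regions. In all, 13 members were called in at least 1 of the 10 comparisons, and Dkk3 in 6 of them. A second p takes the 52 region means as the samples and so measures the spread between regions of a class and not that between arrays. POA/BF, the retina and the pituitary are classes of 1 region. For them this p uses the spread within the other classes and does not measure a spread of their own. Of 56 other genes of the pathway, 54 were measured, all but Kremen2 and Tcf7.

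**Figure D3:**
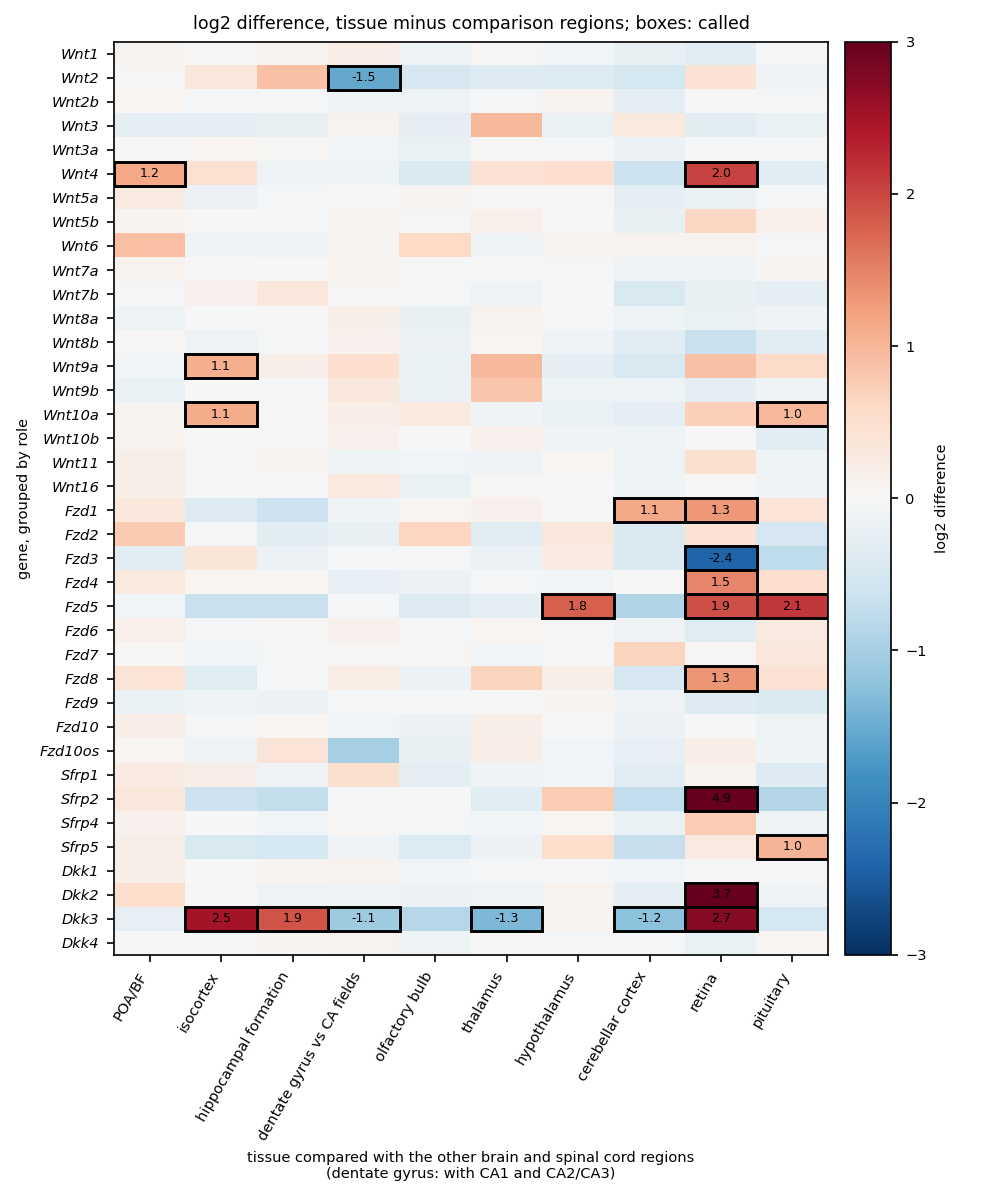
log2 difference between each of 10 tissues (across) and the other brain and spinal cord regions, or CA1 and CA2/CA3 for the dentate gyrus, for the 38 members (down, grouped by role), with colours saturated at 3 units. Boxes with values mark called members; Dkk3 is called in 6 columns and the retina column holds 9 boxes.

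In POA/BF, Wnt4 was the single member called higher, 1 of 38 against 1.62% of all genes, and 0 were called lower (0.148% of all genes; at adjusted p alone 12 members higher and 3 lower, against 14.0% and 14.9% of all genes). Wnt4 averaged 8.59 in POA/BF and 7.43 in the 48 other regions, a difference of 1.16 ± 0.15 (adjusted p = 8.1e-09). The values of the POA/BF arrays, 8.69 and 8.49, lay within the range of the 96 other arrays, which ran from 6.25 to 9.12 around a median of 7.32. With region means as the samples the call was lost (adjusted p = 0.445), and a second Wnt4 probe set gave 0.96. Wnt6 and Fzd2 stood 0.89 ± 0.08 and 0.79 ± 0.07 higher in POA/BF, short of 2-fold. A second, dimmer Wnt6 probe set had 6.11 in POA/BF, against a mean of 6.075 over the regions. Its r with the first set was 0.092, so the Wnt6 values here rest on the brighter set. Of the pathway genes, Rspo1, a secreted enhancer of Wnt signals (1.33), and Reck, a cofactor of Wnt7 signalling in vessels (1.20), were called higher, also not with region means as the samples (adjusted p = 0.525 and 0.399). The 8 markers of meninges and fibroblasts averaged 10.23 in POA/BF, rank 3 of 52 and level with the supraoptic nucleus at 10.23, and all 8 were above their median in the regions away from these tissues. Over the 49 brain and spinal cord regions the mean of these markers correlated with Wnt6 at r = 0.817, with Fzd2 at 0.685 and with Wnt4 at 0.404, regions sharing arrays with both measures. The part of meningeal cells in these levels was not tested. The medial preoptic area had Wnt4 at 8.57 and 8.32 with a marker mean of 7.18, which ranked 47 of 52.

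In the isocortex 3 members were called higher (1.48% of all genes) and 0 lower (0.726% of all genes; at adjusted p alone 8 members higher and 10 lower, against 18.6% and 25.6% of all genes). Dkk3 ran from 11.60 to 11.90 in the 6 cortical arrays with a median of 11.68, against 7.81 to 12.12 with a median of 9.18 in the other 92, which overlapped through the CA fields. Its difference was 2.49 ± 0.06 (adjusted p = 7.96e-42). Wnt10a ran from 7.28 to 8.17 with a median of 7.65, against 6.13 to 7.08 in the other arrays, without overlap, and differed by 1.12 ± 0.08 (adjusted p = 5.97e-20). Wnt9a differed by 1.08 ± 0.06 (adjusted p = 8.41e-23) and overlapped with thalamic arrays. The Wnt9a call rests on its brighter probe set, since the second gave 0.29. In the isocortex 5 other genes of the pathway were higher and 1 lower. The Wnt enhancers Rspo2 (1.84) and Rspo1 (1.26), Dkkl1, a relative of Dkk3 (1.37), Prickle1 of the polarity branch (1.27) and the antagonist Frzb (1.02) were higher, and Tcf7l2 fell by 1.46. The Frzb call was lost with region means as the samples (adjusted p = 0.187) and in 3 of the 6 fits without a cortical array.

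In the hippocampal formation Dkk3 was the single member called higher (1.76% of all genes), at 11.12 on average, against 9.24 in the other regions, a difference of 1.88 ± 0.05 (adjusted p = 4.07e-39). The 8 arrays ran from 9.89 in the ventral subiculum to 12.12 in CA1 with a median of 11.21. No member was called lower (0.885% of all genes; at adjusted p alone 6 members higher and 11 lower, against 19.9% and 29.7% of all genes). Wnt2 stood 0.89 ± 0.05 higher, with 8.80 and 8.81 in CA1 and 6.51 and 6.54 in the dentate gyrus. Within the hippocampus, the dentate gyrus was therefore set against the CA fields. Wnt2 had 6.51 and 6.54 in the dentate gyrus, against 8.80 and 8.81 in CA1 and 7.28 and 7.32 in CA2/CA3, and differed by -1.53 ± 0.12 (adjusted p = 9.36e-16). Dkk3 had 10.86 and 10.64, against 12.12 and 11.87 and 11.56 and 11.72 in the same 2 fields, and differed by -1.06 ± 0.13 (adjusted p = 3.93e-10). These 2 of 38 members were called lower (1.65% of all genes) and 0 higher (0.676% of all genes; at adjusted p alone 3 members higher and 4 lower, against 9.12% and 18.6% of all genes), and for both genes the dentate arrays lay below all CA arrays. Dkk3 missed 2-fold without the second dentate array (-0.95) and after quantile normalization (-0.92). Fzd10os was just short, at -0.99 ± 0.09. The hybridisation control probe sets averaged 11.03 in the dentate gyrus, 10.15 in CA1 and 10.10 in CA2/CA3. Neither the fit of region means nor that with control probe sets as covariates covered this comparison. The part of this array difference in the calls was not tested. Of the pathway genes, the secreted antagonist Sostdc1 fell by 2.87 in the dentate gyrus and Tspan12, a partner of Fzd4, fell by 1.22, while Bambi was 1.32 higher. The 7 measured markers of choroid plexus averaged 7.40 in the dentate gyrus, against 8.32 in CA1 and 9.92 in CA2/CA3, the highest of the brain regions, and 6 of the 7 were lower in the dentate gyrus than in both CA fields. Sostdc1 followed the same order, at 6.38 in the dentate gyrus, 8.03 in CA1 and 10.48 in CA2/CA3, whereas Wnt2 and Dkk3 were higher in CA1 than in CA2/CA3. The part of choroid plexus in these differences was not tested. In the whole hippocampal formation, Prickle2 (1.34), Sostdc1 (1.32), Rspo2 (1.20) and Frzb (1.14) were higher and Rspo1 fell by 1.03. With region means as the samples Frzb missed the threshold (adjusted p = 0.0508).

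In the olfactory bulb 0 members were called in either direction (2.70% of all genes higher and 1.08% lower), by limma with the 2-fold rule. At adjusted p alone 3 of the 38 were higher and 17 lower, against 24.5% and 29.9% of all genes. Dkk3 had 8.57 on average in the bulb, against 9.43 in the other regions. Here the choice of probe set mattered, as described below for Wnt5a and Wnt7a. Other pathway genes did differ, 6 higher and 1 lower. Frzb, an antagonist related to the Sfrp family, was 3.05 higher, Lgr5, a receptor for Rspo proteins, 2.78 higher, and Wls, which carries Wnts to the cell surface, 1.42 higher. Apc of the beta-catenin destruction complex (1.36), Bambi (1.10) and the receptor Tnfrsf19 (1.05) were also higher, and Rspo1 fell by 1.28, the last not with region means as the samples (adjusted p = 0.0549).

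In the thalamus, 3 ligands stood close to 2-fold above the other regions. Wnt3 averaged 5.66 in the thalamus and 4.68 elsewhere, a difference of 0.98 ± 0.04. Wnt9a averaged 7.53 in the thalamus and 6.56 elsewhere, a difference of 0.97 ± 0.05. Wnt9b averaged 8.62 in the thalamus and 7.79 elsewhere, a difference of 0.84 ± 0.04. All 10 thalamic arrays of Wnt9b lay between 8.06 and 9.33, against 7.29 to 8.10 in the 88 others, so that only their ends overlapped. With region means as the samples these differences remained past the p threshold (adjusted p = 2.14e-10 for Wnt3, 5e-09 for Wnt9a and 4.39e-09 for Wnt9b), and they were not called because they missed 2-fold. So 0 members were called higher (1.32% of all genes; at adjusted p alone 11 members higher and 13 lower, against 22.2% and 29.8% of all genes). In 5 of the 10 fits that leave out a thalamic array, 1 or 2 members were called: those without the first array of the mediodorsal or ventral posterior nuclei, or the second of the ventral anterior and ventrolateral nuclei, the lateral geniculate or the medial geniculate (2). The Wnt9a and Wnt9b differences rest on their brighter probe sets. The second sets varied by less than 2-fold over all regions, with ranges of 0.845 for Wnt9a and 0.787 for Wnt9b. That of Wnt9a was highest in the mediodorsal thalamus, at 5.88, against a mean of 5.39 over the regions. That of Wnt9b was highest in the lateral geniculate, at 6.69, against 6.16. Wnt3 had 1 probe set. Dkk3 was called lower (1 of 38, against 1.09% of all genes), with a range of 7.97 to 8.36 and a median of 8.19 in the thalamus, against a median of 9.34 elsewhere, a difference of -1.34 ± 0.05 (adjusted p = 9.97e-34). In the same tissue Tcf7l2, a nuclear partner of beta-catenin, averaged 11.68, against 8.18 elsewhere, the largest pathway difference within the brain at 3.50 ± 0.08 (adjusted p = 3.92e-44). Lef1, its relative, was 2.00 ± 0.04 higher (adjusted p = 9.59e-46), and Prickle1 1.09 ± 0.04 higher. The other 51 pathway genes were not called.

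In the hypothalamus Fzd5 was the single member called higher (0.967% of all genes), and 0 were lower (0.731% of all genes; at adjusted p alone 13 members higher and 12 lower, against 32.5% and 30.0% of all genes). Its 24 hypothalamic arrays ran from 6.11 to 12.20 with a median of 7.28, against 5.51 to 7.39 with a median of 5.96 in the 74 others, a difference of 1.80 ± 0.06 (adjusted p = 7.02e-38). Without the median eminence and the arcuate nucleus, an alternative chosen after seeing the data, the difference was 1.07 and Fzd5 stayed called. With the mean of its 2 probe sets it was 0.99. Sfrp2 stood 0.75 ± 0.04 higher, with the suprachiasmatic nucleus at 9.57 and 9.87 on top and the supraoptic nucleus at 7.77 and 7.86 lowest. Of the pathway genes Rspo1 was called, at 8.23 on average in the hypothalamus, against 6.63 elsewhere (1.60 ± 0.06, adjusted p = 6.88e-34).

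In the cerebellar cortex 1 member was called higher (2.78% of all genes) and 1 lower (2.73% of all genes). Fzd1 ran from 9.84 to 9.97 in the 4 arrays, against 7.62 to 10.83 with a median of 8.76 in the others, where the habenula was higher, and differed by 1.13 ± 0.06 (adjusted p = 5.4e-26). A second Fzd1 probe set gave 0.50. Dkk3 ran from 8.05 to 8.31, against a median of 9.25, and differed by -1.22 ± 0.07 (adjusted p = 1.66e-22). At adjusted p alone 3 of the 38 members were higher in the cerebellar cortex and 28 lower, against 24.4% and 39.9% of all genes, and the median difference was -0.22 for the members and -0.09 for all genes. Among other genes of the pathway Porcn, the enzyme that attaches the lipid to Wnts, was 1.67 ± 0.06 higher (adjusted p = 1.34e-34), while Prickle2 (-1.96), Rspo1 (-1.35), Prickle1 (-1.31) and Tnfrsf19 (-1.06) were lower.

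The retina held most of the called members, 8 higher (13.0% of all genes) and 1 lower (8.46% of all genes; at adjusted p alone 17 members higher and 10 lower, against 35.7% and 37.3% of all genes). Sfrp2 had 12.98 and 12.87 in the retina, against 7.08 to 9.87 in the 98 brain and spinal cord arrays, a difference of 4.92 ± 0.12 or 30.3-fold (adjusted p = 8.4e-44). Dkk2 had 9.33 and 7.94, against 4.57 to 6.00, a difference of 3.70 ± 0.13 (adjusted p = 2.67e-35). For both antagonists the groups did not overlap. Dkk3 (2.73 ± 0.10), Wnt4 (2.03 ± 0.15), Fzd5 (1.93 ± 0.17), Fzd4 (1.47 ± 0.08), Fzd8 (1.33 ± 0.09) and Fzd1 (1.31 ± 0.08) were also higher, all with adjusted p of at most 3.92e-16. Of these, the retina arrays of Fzd4 alone lay above all brain and spinal cord arrays. The SE and p use a spread shared by all regions. The SD of the 2 retina arrays alone was 0.98 for Dkk2 and 0.89 for Wnt4, so for these genes the SE understates the spread in the retina. The Fzd5 call was lost with region means as the samples (adjusted p = 0.118). The second Fzd5 probe set read 5.51 in the retina, against a mean of 5.42 over the regions. Fzd3 had 8.39 and 7.71 in the retina, against 9.71 to 11.41, without overlap, and differed by -2.41 ± 0.09 (adjusted p = 6.34e-35). Of its 5 other probe sets, 4 were also lower in the retina, at -0.74 to -0.36 and so short of 2-fold, and the fifth gave 0.13.

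Since the retina arrays held pituitary hormone mRNA, the level in the pituitary is given for each of these. It was 7.13 for Sfrp2, 4.83 for Dkk2, 8.86 for Dkk3 and 7.14 for Wnt4, each at least 2 units under the retina. It was 8.82 for Fzd4, 7.89 for Fzd8 and 9.22 for Fzd1, also under the retina. For Fzd5 the pituitary, at 8.58, was above the retina, at 8.38, and the part of pituitary RNA in that retina level was not tested. The retina arrays were also the highest of the 52 regions in the meninges list (11.50) and the endothelial list (10.13), and ranked 2 of 52 in the choroid plexus list (10.58, against a median of 7.41). The part of these cells in the retina levels was not tested. Of the pathway genes 10 were higher in the retina and 5 lower. Reck (2.87), Adgra2, its partner in Wnt7 signalling (2.77), Bambi (2.34) and Wls (2.09) were the furthest above, and Apc (-2.08) and the kinase Gsk3b (-1.90) the furthest below.

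In the pituitary 3 members were called higher (6.10% of all genes) and 0 lower (7.24% of all genes; at adjusted p alone 9 members higher and 10 lower, against 30.6% and 25.8% of all genes). Fzd5 had 8.78 and 8.37, against a median of 6.08 over the 98 brain and spinal cord arrays, a difference of 2.13 ± 0.17 (adjusted p = 1.15e-17), which with region means as the samples was lost (adjusted p = 0.12). Sfrp5 differed by 1.03 ± 0.10 (adjusted p = 2.05e-14) and Wnt10a, with 7.68 and 7.61 in the pituitary, by 1.00 ± 0.13 (adjusted p = 6.19e-10). Both were at the edge of the fold threshold, and without the first pituitary array they were 0.64 and 0.96, leaving Fzd5 alone. The second probe sets of Fzd5 and Sfrp5 rose less. That of Fzd5 read 5.57 in the pituitary, against a mean of 5.42 over the regions, and that of Sfrp5 8.66, against 8. Of the pathway genes 4 were higher, among them Reck (1.66), Tspan12 (1.42) and Ror2, a Wnt5a receptor (1.33), and 6 lower, among them Tnfrsf19 (-1.81), Apc (-1.76) and Celsr2 of the polarity branch (-1.72).

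For 12 of the 23 members with several probe sets the brightest was not the one that varied most, and 6 of these passed 2-fold only on another set. The 5 described here, besides Wnt5b, were chosen after their values were seen. Wnt7a, which shapes mossy fibre synapses in the cerebellum, varied by only 0.59 on its brightest set. On a second set it read 9.38 and 9.53 in the cerebellar lobe, 8.93 and 9.15 in the vermis and 8.69 and 8.88 in the anterior olfactory bulb, against 6.27 and 6.66 in the retina. That set gave 1.56 in the cerebellar cortex, 1.15 in the olfactory bulb and -1.28 in the retina, all called. The r between the 2 sets over the regions was -0.03. Wnt5a varied by 0.74 on its brightest set, while another read 8.32 and 8.56 in the median eminence, 8.36 on both arrays of the dorsal subparaventricular zone and 8.31 and 8.28 in the anterior olfactory bulb. It was 1.76 higher in the bulb, and a further set gave 1.41.

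Fzd6, a polarity receptor, read 10.02 and 10.09 in the retina, 9.41 and 9.34 in the pineal gland and 9.35 and 8.98 in the pituitary on another probe set, whose difference in the retina was 2.57, while the brightest set was lowest there. Fzd7 on its second set read 9.61 and 9.67 in the cerebellar lobe, 9.55 and 8.87 in the habenula and 9.38 and 9.23 in the retina, with differences of 2.73 in the cerebellar cortex, 2.42 in the retina and 1.19 in POA/BF. For Sfrp1 the 4 other sets were all highest in the retina, where they differed from the brain and spinal cord regions by 1.21 to 3.03. In POA/BF 2 of them were called, at 1.02 and 1.51. Counting a member as called if any of its probe sets is, 28 of 38 members varied among the regions (66.7% of all genes by the same count). Which probe set measures the main transcript cannot be told from these data.

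**Figure D4:**
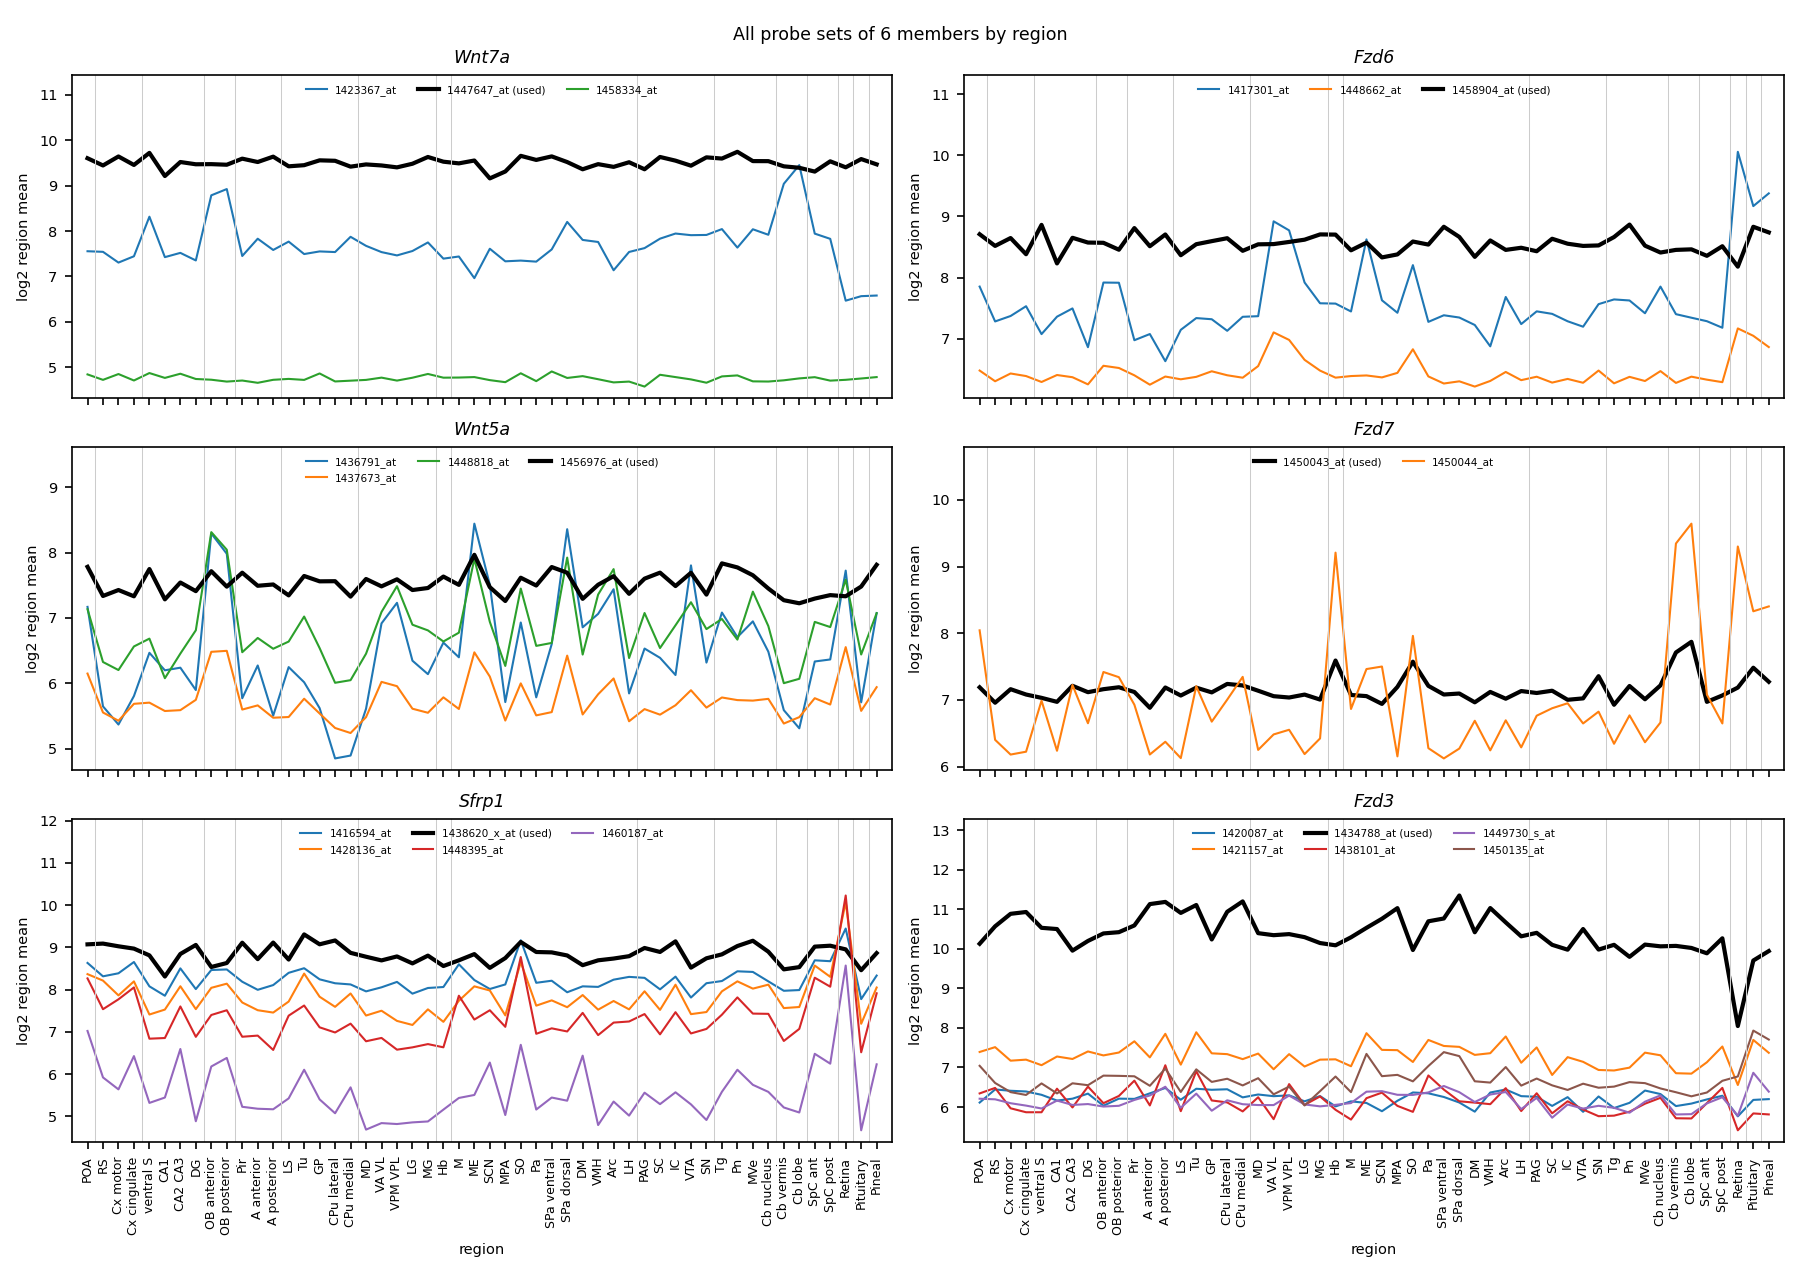
Region means in log2 units of all probe sets of 6 members over the 52 regions; the thick black line is the brightest set, used in the comparisons. For Wnt7a, Wnt5a, Sfrp1, Fzd6 and Fzd7 a thinner line varies more than the black one, and for Fzd3 the black line has the deepest drop, in the retina.

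Members were compared in pairs over the 52 region means, among the 21 that were called and bright enough. The median r of the 210 pairs was 0.05, so most patterns were unlike each other. The most alike were Dkk2 and Sfrp2 (r = 0.79), Fzd2 and Wnt6 (0.756), Fzd4 and Sfrp4 (0.723), Dkk2 and Fzd4 (0.723), Wnt10a and Wnt9a (0.535) and Fzd8 and Sfrp2 (0.515). Within the 49 brain and spinal cord regions these were, in the same order, 0.317, 0.765, 0.481, 0.323, 0.483 and 0.371. The highest r within the 49 was that of Sfrp2 and Sfrp5, 0.782, against 0.472 over the 52. The Wnt6 pattern rests on its brighter probe set. The least alike were Fzd3 and Fzd4 (-0.672), Dkk2 and Fzd3 (-0.58) and Fzd1 and Fzd3 (-0.481), in the brain and spinal cord -0.295, -0.05 and -0.378. The points share arrays and are not independent, so no p is given.

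Some Wnt genes lie side by side in the genome, by the gene order of GRCm38.p6. Wnt9b and Wnt3 on chromosome 11 followed each other over the 52 regions at r = 0.695. Their listed spans overlap, since Wnt9b runs from 103727362 to 103775272 and Wnt3 starts at 103774175. Each ranked within the top 5 where the other was highest, Wnt9b at rank 4 in the mediodorsal thalamus and Wnt3 at rank 5 in the lateral geniculate. Wnt10b and Wnt1 on chromosome 15 had r = 0.556, both with ranges under 2-fold. Wnt3a and Wnt9a on chromosome 11 (r = 0.24) and Wnt6 and Wnt10a on chromosome 1 (r = 0.066) did not share their regions. Wnt9a was highest in the mediodorsal thalamus, where Wnt3a ranked 39 of 52, and Wnt10a was highest in retrosplenial cortex, where Wnt6 ranked 36.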

How the data were processed

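The authors deposited log2 values made with RMA, per the submitters' processing notes, in a single table of 45101 probe sets for all arrays; RMA corrects background, quantile-normalizes arrays and summarizes probes, and no version is given in the sources used here. Values were used as deposited. Gene symbols came from the platform annotation: 34945 probe sets had 1 symbol, 932 several and 9160 none, and 64 were controls. Each of 18193 genes was represented by its single-symbol probe set with the highest mean. All arrays entered 1 fit in limma 3.58.1 under R 4.3.3, with a separate level for every region (52 residual degrees of freedom, prior 7.87). Contrasts weighted regions equally, and the retina, pituitary and pineal gland were left out of the brain and spinal cord. Tests were two-sided, with Benjamini-Hochberg adjustment across the genes. The number of arrays, 2 per region, limits the precision. Regions were grouped into 16 classes by their labelled anatomy. The procedure was tested on simulated data of the same design.

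The members, pathway genes, marker lists and comparisons were chosen with earlier results of these data known. Called members were named, up to 12 per comparison, each member with its highest region, and up to 6 pathway genes per comparison by size. The probe set levels of 6 members were chosen for display after their values were seen. Marker lists reported here covered meninges and fibroblasts, choroid plexus, endothelium, anterior pituitary and the labelled regions. Alternatives were averaging all probe sets of a gene, each probe set separately, a filter on dim genes, quantile normalization, no fold threshold, the replicate number as a block, region means as the samples (36 residual degrees of freedom), another reference, control probe sets as covariates, and leaving out each array of the compared tissues in turn. Python 3.11.15 with pandas 2.3.3 handled the tables.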

Additional observations from a re-analysis of the deposited data

How the results depend on the processing

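Counts are of members called higher or lower in each tissue. When all probe sets of a gene were averaged, the olfactory bulb had 1 higher, the hypothalamus 0 higher and the retina 0 lower, and after quantile normalization the dentate gyrus had 1 lower. With no fold threshold, 37 members (95.1% of all genes) differed among the 52 regions, and the members higher and lower were 12 and 3 in POA/BF, 8 and 10 in isocortex, 6 and 11 in the hippocampal formation, 3 and 4 in the dentate gyrus, 3 and 17 in the olfactory bulb, 11 and 13 in the thalamus, 13 and 12 in the hypothalamus, 3 and 28 in the cerebellar cortex, 17 and 10 in the retina, and 9 and 10 in the pituitary; of all genes, 9.12% to 35.7% were higher and 14.9% to 39.9% lower. With region means as the samples POA/BF had 0 higher, and Fzd5 lost its call in the retina and in the pituitary. Chosen after seeing the data, counting any probe set gave 3 higher in POA/BF (2.10% of all genes), 3 lower in the dentate gyrus (2.33%), 2 higher in the olfactory bulb (3.53%), 3 higher and 2 lower in the cerebellar cortex (4.13% and 3.16%), 12 higher and 2 lower in the retina (15.9% and 10.6%), and 6 higher and 1 lower in the pituitary (7.75% and 8.70%). Either control measure as a covariate gave 0 higher in the pituitary. These fits were also chosen after seeing the data and covered neither POA/BF nor the dentate gyrus comparison. The causes of these shifts were not tested.

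The 62 arrays of the compared tissues were left out in turn; those of the other regions were not. This gave 22 to 23 members called among the regions, 1 to 3 lower in the dentate gyrus, 0 to 2 higher in the thalamus, 1 to 3 higher in the pituitary and 8 to 10 higher in the retina. It left every other count as it was: 1 to 1 higher in POA/BF, the hippocampal formation, hypothalamus and cerebellar cortex, 3 to 3 higher in isocortex, 1 to 1 lower in thalamus, cerebellar cortex and retina, and 0 to 0 for the rest. A filter on dim genes, which kept 14036 genes and 29 members, gave 21 members called among the regions and changed no other count of members.

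The replicate numbers did not pair the regions in a consistent way. Over 1326 pairs of regions the correlation of same-numbered deviations had a median of 0, ran from -0.503 to 0.524 and passed 0.1 in 24.7%. Arrays of some regions thus deviated together or in opposite directions, whereas the fit takes arrays of different regions as independent. With the replicate number as a block the counts were the same, 22 members among the regions, 8 higher in the retina, 3 higher in isocortex and pituitary, 2 lower in the dentate gyrus, and 1 or 0 for the others. With 2 arrays a region and no animal named, small differences among neighbouring regions are beyond what these data resolve, and dim members have little signal over background.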
